A study of Saccharomyces cerevisiae with 103 samples.

Results

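The nuclear genes of oxidative phosphorylation were followed through all 5 experiments of the series. Their 35 members, of 6692 genes in the deposited tables, were taken from a list of systematic names and not by a rule on measured values. The list was chosen with earlier results of these data known. They are 4 genes of succinate dehydrogenase (complex II), 9 of the cytochrome bc1 complex (complex III), the cytochrome c gene CYC1 (YJR048W), 8 of cytochrome c oxidase (complex IV), 12 of the F1Fo ATP synthase and the NADH dehydrogenase gene NDI1 (YML120C). All 35 had a row in the RNA-seq count, poly(A) tag and tail-length tables, and all 35 passed the filter on low counts.

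In the inner mitochondrial membrane, electrons from NADH and succinate pass through ubiquinone and the bc1 complex to cytochrome c, and cytochrome c oxidase hands them to oxygen. The proton gradient that the bc1 complex and the oxidase build drives ATP synthase. Budding yeast has no proton-pumping complex I; the single-subunit dehydrogenase Ndi1 takes its place. Several subunits of these complexes are encoded in the mitochondrial genome and are not among the 35 genes. The nuclear ATP synthase subunit genes ATP19 and TIM11 are also not among the 35 and were counted with another list. Yeast grows by fermentation in glucose medium and by respiration on acetate. Many of these genes are activated by the Hap2/3/4/5 complex, which binds the sequence CCAAT.

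To show what the genes share in sequence, windows of 300 bases, from 400 to 101 bases before the coding start, were read on the coding strand from the R64 reference genome, the assembly behind sacCer3. R64 is the genome of strain S288C, whereas the samples are SK1. The motif CCAAT, or ATTGG where it lies on the other strand, was found in the windows of 32 of the 35 genes (91.4%), against 2630 of 5987 genes in all (43.9%). It was found for 4 of 4 genes of complex II, 8 of 9 of complex III, 7 of 8 of complex IV, 12 of 12 of ATP synthase and NDI1. The windows of CYT1, COX4 and CYC1 held none. A match is a description of letters, and 12 of the 35 windows share bases with a neighbouring coding region. The windows of 4 genes described in detail below are printed with the motif in capitals: SDH2 (chrXII:54032-54331, minus strand), ATP2 (chrX:647207-647506, plus strand), QCR7 (chrIV:1496649-1496948, minus strand) and CYC1 (chrX:525935-526234, plus strand).
SDH2: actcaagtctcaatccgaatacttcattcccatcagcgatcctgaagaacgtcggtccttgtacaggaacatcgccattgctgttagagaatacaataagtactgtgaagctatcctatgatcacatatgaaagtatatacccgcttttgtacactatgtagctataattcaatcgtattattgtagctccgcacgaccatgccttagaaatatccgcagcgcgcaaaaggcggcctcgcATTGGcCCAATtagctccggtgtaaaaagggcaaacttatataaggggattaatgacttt
ATP2: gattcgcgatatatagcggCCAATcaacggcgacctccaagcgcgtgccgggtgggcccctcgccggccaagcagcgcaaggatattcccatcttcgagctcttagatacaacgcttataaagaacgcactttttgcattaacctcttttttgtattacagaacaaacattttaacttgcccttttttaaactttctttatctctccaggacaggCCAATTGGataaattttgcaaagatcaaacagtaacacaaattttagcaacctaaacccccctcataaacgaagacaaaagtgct
QCR7: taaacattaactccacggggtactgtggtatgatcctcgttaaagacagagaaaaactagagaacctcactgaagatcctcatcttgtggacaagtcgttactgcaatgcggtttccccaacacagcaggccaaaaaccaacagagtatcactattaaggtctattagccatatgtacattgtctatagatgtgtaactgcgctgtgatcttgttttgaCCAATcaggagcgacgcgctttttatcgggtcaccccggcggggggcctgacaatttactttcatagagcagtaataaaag
CYC1: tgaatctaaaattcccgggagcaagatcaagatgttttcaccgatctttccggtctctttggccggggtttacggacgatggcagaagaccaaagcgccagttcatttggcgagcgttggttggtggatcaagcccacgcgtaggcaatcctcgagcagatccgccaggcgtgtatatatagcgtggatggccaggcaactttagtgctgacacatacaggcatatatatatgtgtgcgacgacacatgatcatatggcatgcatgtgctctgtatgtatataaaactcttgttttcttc

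The second motif examined was TGTANATA, the core that the RNA-binding protein Puf3 recognises in many mRNAs of mitochondrial proteins. It was found on the coding strand within 200 bases after the stop codon in 4 of the 35 genes (11.4%), namely SDH1, COX8, ATP1 and ATP18. Among all genes it was found in 843 of 5987 (14.1%), so the share among the 35 genes lay near that of the genome.

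All samples were cultures of SK1, a budding yeast strain that sporulates rapidly. In the sporulation series, wild-type cells were sampled hourly from 0 to 9 h in sporulation medium (SPO), each hour giving 2 RNA-seq libraries and 2 libraries of poly(A) tags (mPAT). In the return to growth, wild-type cells were moved from SPO after 1 h or 7 h to the glucose medium YPD and sampled after 5 and 20 min and before transfer, again with 2 libraries of each kind. In the third experiment, strains without CCR4 (ccr4Δ/Δ), without POP2 (pop2Δ/Δ) or without XRN1 (xrn1Δ/Δ) were set beside wild type in vegetative growth in YPD (Veg), in premeiotic conditions (Pre) and after 5 h in SPO (Mei). Ccr4 and Pop2 remove adenosines from mRNA 3′ ends as the nuclease subunits of Ccr4-Not. Xrn1 degrades decapped mRNA in the cytoplasm. In the fourth, a degron-Xrn1 strain growing in YPD was sampled 30 min after 500 µM auxin and 50 µM CuSO4 and at 0 min, with a wild-type control. In the fifth, a pCup1-Ccr4 strain was sampled 60 min after 50 µM CuSO4 and at 0 min, with a wild-type control. Experiments 3 to 5 had 1 library of each kind per strain and condition, so their differences carry no test and no replicate check. The 3 further RNA-seq libraries, made by fragmenting RNA before adapter ligation (ZeroRNA), are of xrn1Δ/Δ in Veg and of wild type in Mei and Veg.

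RNA-seq totals ran from 132594 to 4689131 counts per library and tag totals from 71930 to 8926553. The 35 genes held between 0.524% and 3.93% of the RNA-seq counts of a library. The lowest total belongs to replicate 2 of the 7 h cells before transfer. The deleted gene had 0 to 1.8 CPM (counts scaled to a common TMM-adjusted library total) in ccr4Δ/Δ, 0 in pop2Δ/Δ and 1.8 to 4.3 in xrn1Δ/Δ. In the tag libraries, on which the tail values rest, some tags were assigned to deleted genes. POP2 had 11.4, 13.3 and 10.8 tag CPM in pop2Δ/Δ in Veg, Pre and Mei, against 82.1, 61.5 and 43.8 in wild type. CCR4 had 1.96, 16.9 and 7.4 tag CPM in ccr4Δ/Δ, against 193, 185 and 125 in wild type, and XRN1 had 1.05 to 2.11 in xrn1Δ/Δ, against 115 to 225 in wild type. CCR4 had 490 CPM at 60 min of induction and 105 CPM at 0 min. XRN1 RNA in the degron strain had 122 CPM at 30 min and 128 CPM at 0 min, which does not check the loss of the protein. In bulk RNA, fewer cells making a transcript and less of it per cell cannot be told apart.

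Per kilobase of coding length, the genes were among the stronger ones of cells entering SPO. At 0 h the median level was 475 CPM per kb in complex II, 537 in complex III, 1721 in complex IV and 1538 in ATP synthase, against 47.7 over all 6007 genes with a coding length. The ATP synthase β subunit gene ATP2 stood highest at 3275 and 3328 CPM per kb in the 2 libraries, followed by the oxidase subunit genes COX13 at 2868 and 2875 and COX12 at 2655 and 2939. NDI1 stood lowest at 220.4 and 221, below SDH2 at 330.1 and 348 and CYC1 at 326 and 360. The replicate ranges of SDH2 and CYC1 overlap, as do those of COX13 and COX12.

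During sporulation the complexes parted within the first hour. All ATP synthase and cytochrome c oxidase genes fell in RNA-seq, 3 of 4 complex II genes rose, and complex III genes moved both ways. The summed level of the 35 genes fell to 14407 ± 319 CPM at 1 h and 7805 ± 288 CPM at 9 h, against 26237 ± 704 CPM at 0 h (SD, n = 2 each). Of the 35 genes, 25 had their highest hourly mean at 0 h and 16 their lowest at 9 h.

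By edgeR's quasi-likelihood test, with adjusted p under 0.05 over all genes as the threshold, 5 of the 35 genes rose and 23 fell at 1 h against 0 h. Of all genes tested, 57.7% were called in that comparison, 28.4% higher and 29.3% lower. At 5 h, 4 rose and 26 fell, beside 67.6% of all genes called, 30% higher and 37.6% lower. At 9 h, 2 rose and 30 fell, beside 62.6% of all genes called, 28.5% higher and 34.1% lower. The median log2 change of the 35 genes was -0.66 at 1 h, -0.89 at 5 h and -1.65 at 9 h, and the median of all genes was 0.02, -0.11 and -0.15. These comparisons share the 0 h libraries.

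**Figure D1:**
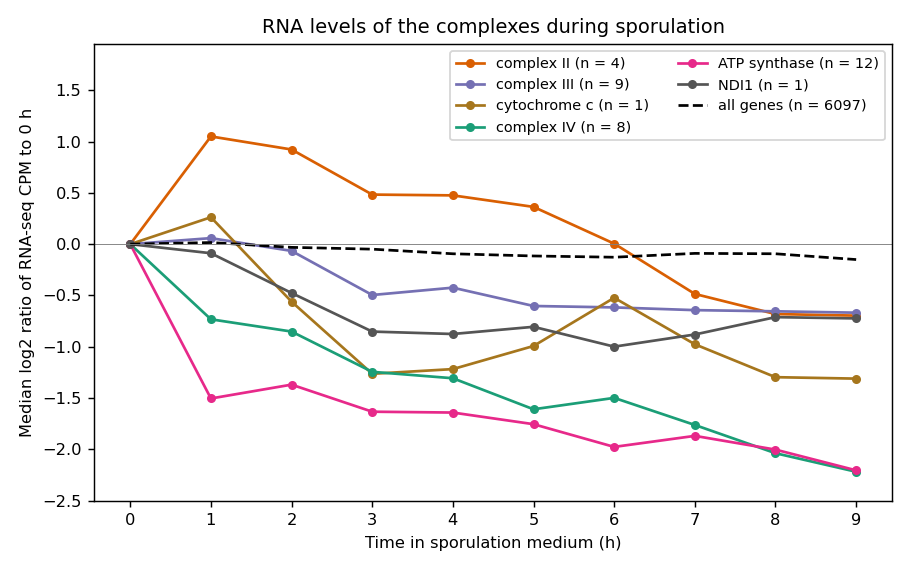
Median over the genes of each complex of the log2 ratio of mean RNA-seq CPM (with 1 CPM added) to that at 0 h, against hours in sporulation medium. CYC1 and NDI1 are single genes and the dashed line is the median of all genes with a mean of at least 5 CPM. At 1 h complex II lies at 1.05 and ATP synthase at -1.50, and at 9 h every line lies below the dashed one.

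In complex II, 3 of 4 genes rose at 1 h and the median log2 change was 1.05. SDH2 (YLL041C), the iron-sulfur subunit, had 761.5 and 764.4 CPM at 1 h, against 278.6 and 264.4 CPM at 0 h. Its 2 libraries at 1 h lay far above both at 0 h, with a log2 change of 1.49 (SE 0.12, adjusted p = 5.89e-09). The membrane subunit genes SDH3 (YKL141W) and SDH4 (YDR178W) rose by 1.03 (SE 0.12) and 1.07 (SE 0.13), with adjusted p of 3.11e-07 and 1.26e-06. SDH1 (YKL148C), the flavoprotein subunit, had 1166 and 1037 CPM at 1 h and 1090 and 947.2 CPM at 0 h, and its groups overlapped (log2 0.11, adjusted p = 0.532). These values are of RNA-seq, and SDH2 was not called in poly(A) tags at 1 h.

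Later the 4 genes separated. SDH3 had 98.18 and 109.2 CPM at 9 h, against 331.4 and 327.9 CPM at 0 h, a fall by 1.65 on the log2 scale (SE 0.14, adjusted p = 8.85e-09). SDH1 fell by 1.34 (SE 0.16, adjusted p = 5.58e-07) to 428.2 and 372.5 CPM at 9 h. SDH2 had 242.7 and 282.8 CPM at 9 h, which overlapped its 0 h values (log2 -0.03, adjusted p = 0.866). SDH4 had 267.3 and 315.7 CPM at 9 h, against 236.5 and 221.6 CPM at 0 h (log2 0.37, SE 0.14, adjusted p = 0.0309), a call that was lost without 9 h replicate 2 (adjusted p = 0.312), without 0 h replicate 1 or 2 (0.0583 and 0.14) and with library size alone (0.055). Between 5 h and 9 h all 4 fell, with SDH3 lowest at -1.65 (SE 0.14, adjusted p = 3.33e-08); 2 of the 35 genes rose and 22 fell in that comparison, beside 50.6% of all genes called.

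In complex III, 2 of 9 genes rose and 3 fell at 1 h, with a median log2 change of 0.06. QCR6 (YFR033C), the acidic hinge subunit, rose most at 5 h, to 390.2 and 500.8 CPM, against 261.2 and 215.9 CPM at 0 h (log2 0.89, SE 0.13, adjusted p = 9.47e-06). At 1 h it had 340.3 and 316.2 CPM (log2 0.46, SE 0.13, adjusted p = 0.00597), and at 9 h 308.2 and 300.7 CPM (log2 0.36, adjusted p = 0.0331). The 1 h call was lost without 0 h replicate 2 (adjusted p = 0.0983), and the 9 h call without any one of 0 h replicate 2, 9 h replicate 1 and 9 h replicate 2 (adjusted p 0.257, 0.106 and 0.101). QCR9 (YGR183C), a small subunit, fell at 1 h to 198.6 and 156.2 CPM, against 263.6 and 292.8 CPM at 0 h (log2 -0.66, SE 0.12, adjusted p = 0.000138). At 9 h it had come back to 229.1 and 243.9 CPM and was the complex III gene that rose against 5 h (log2 0.60, SE 0.14, adjusted p = 0.00196).

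RIP1 (YEL024W), the Rieske iron-sulfur protein, held 264.6 and 312.9 CPM at 1 h but fell to 65.45 and 76.3 CPM at 9 h, against 263.6 and 282 CPM at 0 h (log2 -1.91, SE 0.21, adjusted p = 2.05e-07). QCR7 (YDR529C), a small subunit that faces the matrix, had 452.7 and 519.4 CPM at 1 h, 348.6 and 386.8 CPM at 5 h and 237.3 and 293.2 CPM at 9 h, against 413.8 and 519.5 CPM at 0 h. Its 1 h values overlapped those at 0 h, and its 9 h values lay below them. CYC1, iso-1-cytochrome c, had 143.9 and 127.7 CPM at 1 h, 40.53 and 72.16 CPM at 5 h and 43.64 and 46.38 CPM at 9 h, against 118.7 and 107.4 CPM at 0 h. The 1 h change did not pass the test (log2 0.26, adjusted p = 0.164), and CYC1 fell by 1.14 at 5 h (SE 0.19, adjusted p = 3.12e-05) and by 1.31 at 9 h (SE 0.24, adjusted p = 9.68e-05). Without 5 h replicate 1 the 5 h fall was -0.62 (adjusted p = 0.0156).

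All 8 genes of cytochrome c oxidase fell at 1 h and at 9 h, with median log2 changes of -0.73 and -2.22. COX12 (YLR038C) had 49.09 and 91.26 CPM at 9 h, against 669.1 and 740.6 CPM at 0 h. This was the deepest fall of the complex (log2 -3.23, SE 0.18, adjusted p = 4.04e-11). COX5A (YNL052W), the subunit whose alternative form is COX5B, had 307.3 and 403.8 CPM at 1 h, against 781.5 and 903.8 CPM at 0 h (log2 -1.24, SE 0.18, adjusted p = 1.13e-05). COX9 (YDL067C) moved least, to 239.9 and 235.1 CPM at 1 h and 204.5 and 239.4 CPM at 9 h, against 293.6 and 288.7 CPM at 0 h. Its changes of -0.29 at 1 h (adjusted p = 0.0457) and -0.37 at 9 h (adjusted p = 0.0237) were lost without any one of the 4 libraries compared at 1 h (adjusted p up to 0.143), and at 9 h without 9 h replicate 1 (0.154) or either 0 h library (0.0717 and 0.0534). Both were lost with size factors of the relative log expression kind (adjusted p 0.133 and 0.115).

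All 12 ATP synthase genes fell at 1 h and at 9 h, with medians of -1.50 and -2.24. The F1 subunit genes ATP1 (YBL099W, α) and ATP2 (YJR121W, β) fell most in the first hour. ATP1 had 1056 and 1128 CPM at 1 h, against 4072 and 4411 CPM at 0 h (log2 -1.96, SE 0.14, adjusted p = 9.1e-10). ATP2 had 1282 and 1359 CPM at 1 h, against 5112 and 5031 CPM at 0 h (log2 -1.94, SE 0.15, adjusted p = 2.69e-09), and 379.1 and 417.4 CPM at 9 h. Both groups of 2 libraries lay far apart in each gene. The smallest falls were -0.71 for the Fo subunit gene ATP17 at 1 h (SE 0.09, adjusted p = 2.97e-06) and -0.75 for the ε subunit gene ATP15 at 9 h (SE 0.27, adjusted p = 0.0197). The ATP15 call was lost without 0 h replicate 1 (adjusted p = 0.0912) or 9 h replicate 2 (0.193). ATP20, the g subunit that sits where ATP synthases pair, fell further between 5 h and 9 h (log2 -1.21, SE 0.17, adjusted p = 1.18e-05).

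NDI1 had 323.1 and 317.3 CPM at 1 h, close to 341.1 and 339.8 CPM at 0 h (log2 -0.09, adjusted p = 0.517). Its log2 change was 0.0093 with library size alone (adjusted p = 0.954). It fell by 0.80 at 5 h (SE 0.12, adjusted p = 7.2e-06) and by 0.69 at 9 h (SE 0.13, adjusted p = 9.63e-05), to 182.7 and 228.9 CPM. The directions of the 4 complex medians at 1, 5 and 9 h were the same with size factors of the relative log expression kind and with library size alone.

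Poly(A) tags, which count polyadenylated 3′ ends, also fell in complex IV and ATP synthase, while complex II had a median near 0 at 1 h. At 1 h, 1 of the 35 genes rose and 23 fell in tag counts, beside 25.6% of all genes called. At 5 h, 1 rose and 29 fell, beside 37.8%, and at 9 h none rose and 28 fell, beside 35.6%. Median log2 tag changes at 1 h were -0.05 in complex II, -0.52 in complex III, -1.44 in complex IV and -1.42 in ATP synthase. Without 0 h replicate 2, 1 h replicate 1 or 1 h replicate 2, the number called at 1 h was 12, 15 or 12, and with library size alone 2 rose and 12 fell. The genes that rose in tags were SDH3 at 1 h (258.7 and 389.6 CPM, against 77.61 and 172.3 CPM at 0 h) and SDH4 at 5 h (5611 and 3489 CPM, against 1581 and 1520 CPM at 0 h). SDH3 changed by 1.24 on the log2 scale (SE 0.42, adjusted p = 0.0257), a call lost by DESeq2 (0.0877) and without 0 h replicate 1 (0.204) or 1 h replicate 2 (0.257), with 2.09 without 0 h replicate 2. SDH4 rose by 1.41 (SE 0.34, adjusted p = 0.00103).

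SDH2 went opposite ways in the assays at 5 h. Its tags had 473.2 and 508.3 CPM at 5 h, against 902.3 and 994.1 CPM at 0 h, both libraries lower (log2 -1.09, SE 0.30, adjusted p = 0.0037). Its RNA-seq had 479.4 and 424.3 CPM at 5 h, against 278.6 and 264.4 CPM at 0 h, both libraries higher (log2 0.74, SE 0.13, adjusted p = 3.74e-05). Of the 27 genes called in both assays at 5 h, SDH2 was the only one called in opposite directions. Of the 23 called in both at 1 h and the 26 at 9 h, none was. SDH2 was not called in tags at 1 h, where it had 87 and 124 tags, against 93 and 225 at 0 h. The totals of these libraries were 109199 and 176409 tags at 1 h and 119779 and 276404 at 0 h. The tag call of SDH2 was lost without 0 h replicate 2 (adjusted p = 0.0716), whose 225 SDH2 tags compare with 93 in 0 h replicate 1. The tag libraries come from poly(A)-selected RNA and the RNA-seq libraries from ribosome-depleted RNA, and the part of this in the difference was not tested.

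**Figure D2:**
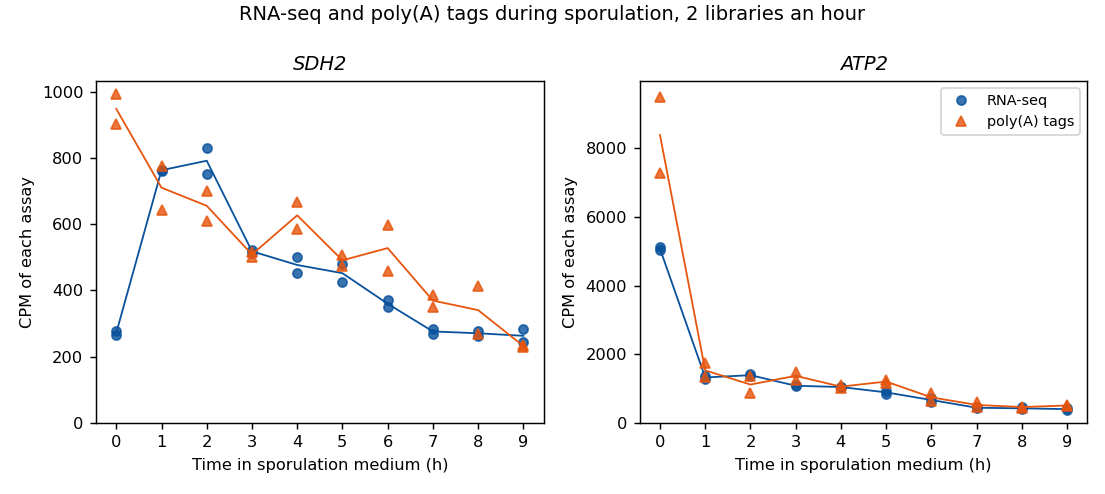
CPM of RNA-seq (circles) and of poly(A) tags (triangles) for SDH2 and ATP2 by hour in sporulation medium, each point a library and each line the mean of 2. For SDH2 the assays lie apart at 0 h, with tags at 902.3 and 994.1 and RNA-seq at 278.6 and 264.4. They already lie close at 1 h, where RNA-seq is higher and tags are lower than at 0 h. ATP2 falls at 1 h in both.

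Poly(A) tails of several genes were longer in early sporulation. A tail value needs 20 tags, which 29 of the 35 genes had in the compared libraries at 1 h, 30 at 5 h and 10 at 9 h. Of all genes, 530 had such values at 1 h, 559 at 5 h and 373 at 9 h, and the shares of all genes are of these. By limma, 7 of 29 tails were longer and none shorter at 1 h (10.8% of all genes called longer), 8 of 30 were longer at 5 h (9.48% longer and 9.66% called in all) and none of 10 was called at 9 h (0.536% longer and 1.61% called in all). At 9 h, 2 of the 10 had an unadjusted p under 0.05. The median change of the tested genes was 5.87 nt at 1 h and 6.15 nt at 5 h, and that of all genes was 4.26 and 3.82 nt. QCR7 tails had means of 24.71 and 26.05 nt at 1 h, against 13.86 and 16.14 nt at 0 h, a difference of 10.4 nt (SE 2.73, adjusted p = 0.0344). SDH2 tails had 23.26 and 27.59 nt at 1 h, against 15.29 and 16.09 nt at 0 h (9.74 nt, SE 2.57, adjusted p = 0.0335). In both genes every 1 h library lay above every 0 h library.

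CYT1 (YOR065W), cytochrome c1, had the largest difference at 5 h, with 29.27 and 43.13 nt against 16.04 and 18.65 nt at 0 h (18.9 nt, SE 3.98, adjusted p = 0.0208). Its values rest on 22 to 31 tags a library. The CYT1 call was lost without 0 h replicate 1 (adjusted p = 0.201) or 5 h replicate 2 (0.173). Leaving out any one of the 4 libraries left 0 to 2 calls at 1 h, and at 5 h none without 0 h replicate 1 or 5 h replicate 2 and 5 without 0 h replicate 2. With each library centred on its median tail, none of the 29 was called at 1 h and 5 were at 5 h. With the replicate number as a block, 18 were called at 1 h and 22 at 5 h, though no label says that the number pairs samples.

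Return to YPD after 1 h in SPO separated complex II and NDI1 from the other complexes. After 20 min, all 4 succinate dehydrogenase genes and NDI1 had fallen below their level before transfer, while CYC1 and, on the TMM scale but not with library size alone, most ATP synthase genes had risen. SDH2 had 68.31 and 134.6 CPM at 20 min, against 919.3 and 941.8 CPM before transfer (log2 -3.15, SE 0.19, adjusted p = 1.05e-18). SDH1 had 140.6 and 237.3 CPM, against 1204 and 1050 CPM before (log2 -2.56, SE 0.19, adjusted p = 4.79e-16). SDH3 and SDH4 fell by 2.17 (SE 0.15) and 2.05 (SE 0.17), with adjusted p of 2.63e-16 and 2.7e-14. NDI1 had 89.94 and 102.2 CPM, against 314.4 and 336.4 CPM before (log2 -1.75, SE 0.15, adjusted p = 1.68e-13). In each of these genes both libraries after 20 min lay below both before.

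On the other side, ATP14, the h subunit of the ATP synthase stalk, had 458.2 and 492.5 CPM at 20 min, against 155.8 and 173.5 CPM before (log2 1.54, SE 0.15, adjusted p = 1.37e-12). ATP20 had 355.8 and 376.8 CPM, against 142.3 and 158.6 CPM before (log2 1.29, SE 0.15, adjusted p = 7.6e-10). CYC1 had 114.4 and 192.6 CPM, against 64.41 and 56.94 CPM before (log2 1.36, SE 0.19, adjusted p = 2.13e-08). These 3 genes had no overlap between groups. In all, 17 of the 35 genes rose and 8 fell at 20 min, beside 81.1% of all genes called, 38.4% higher and 42.7% lower. By complex, 0 rose and 4 fell in complex II, 3 and 2 in complex III, 5 and 1 in complex IV and 8 and 0 in ATP synthase.

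Genes of complexes III and IV moved both ways. In complex III, QCR8 rose by 0.39 (adjusted p = 0.0157) and RIP1 fell by 0.43 (adjusted p = 0.0094). In complex IV, COX6 rose by 0.69 (SE 0.16, adjusted p = 0.000133) and COX13 fell by 0.87 (SE 0.15, adjusted p = 1.91e-06). The calls of QCR8 and RIP1 were lost without 20 min replicate 2 (adjusted p 0.376 and 0.0708), that of RIP1 also without the 1 h replicate 1 (0.199) and that of QCR8 without the 1 h replicate 2 (0.0526), and both by DESeq2 (0.0551 for QCR8 and 0.16 for RIP1). Without 20 min replicate 2, 16 genes were called, 10 higher and 6 lower. Scaling by library size alone moved the median of all genes to -0.77, against -0.10 with TMM. The medians were then -3.04 in complex II, -0.65 in complex III, -0.29 in complex IV and -0.14 in ATP synthase, against -2.36, 0.02, 0.38 and 0.53 with TMM, so the last 3 changed sign while staying above the median of all genes. By that scaling 3 genes rose and 21 fell. QCR8 was then at -0.29 and COX6 at 0.015, without a call (adjusted p 0.0788 and 0.935). CYC1, ATP14 and ATP20 stayed higher and complex II and NDI1 lower under both.

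After 5 min in YPD the genes had mostly fallen together in RNA-seq. They held 1.65% and 1.83% of RNA-seq counts before transfer and 1.00% and 1.01% at 5 min. Their share of poly(A) tags was 2.25% and 2.30% before and 2.11% and 2.27% at 5 min, where tags were not tested. In RNA-seq, 1 of the 35 rose and 30 fell, beside 74.1% of all genes called, 27.4% higher and 46.7% lower. Medians were -0.82 for the 35 genes and -0.43 for all genes. NDI1 had 56.82 and 61.88 CPM at 5 min (log2 -2.43, SE 0.17, adjusted p = 3.02e-16), the deepest fall. Complex II changes ran between -1.44 for SDH2 (SE 0.18, adjusted p = 2.11e-09) and -0.89 for SDH4 (SE 0.16, adjusted p = 7.78e-06). Complex III changes ran between -1.37 for QCR9 (SE 0.16, adjusted p = 9.91e-10) and -0.62 for QCR7 (SE 0.15, adjusted p = 0.00026), all 9 genes falling. In complex IV COX13 fell most, by 1.07 (SE 0.15, adjusted p = 9.27e-08), and in ATP synthase ATP17, by 0.88 (SE 0.15, adjusted p = 2.67e-06). The gene that rose was CYC1, with 89.79 and 92.54 CPM at 5 min (log2 0.60, SE 0.20, adjusted p = 0.00795), a call lost without the 1 h replicate 2 (adjusted p = 0.0528). In RNA-seq ATP2 had 744.3 and 647.8 CPM at 5 min and 1885 and 1969 CPM at 20 min, against 1191 and 1225 CPM before.

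**Figure D3:**
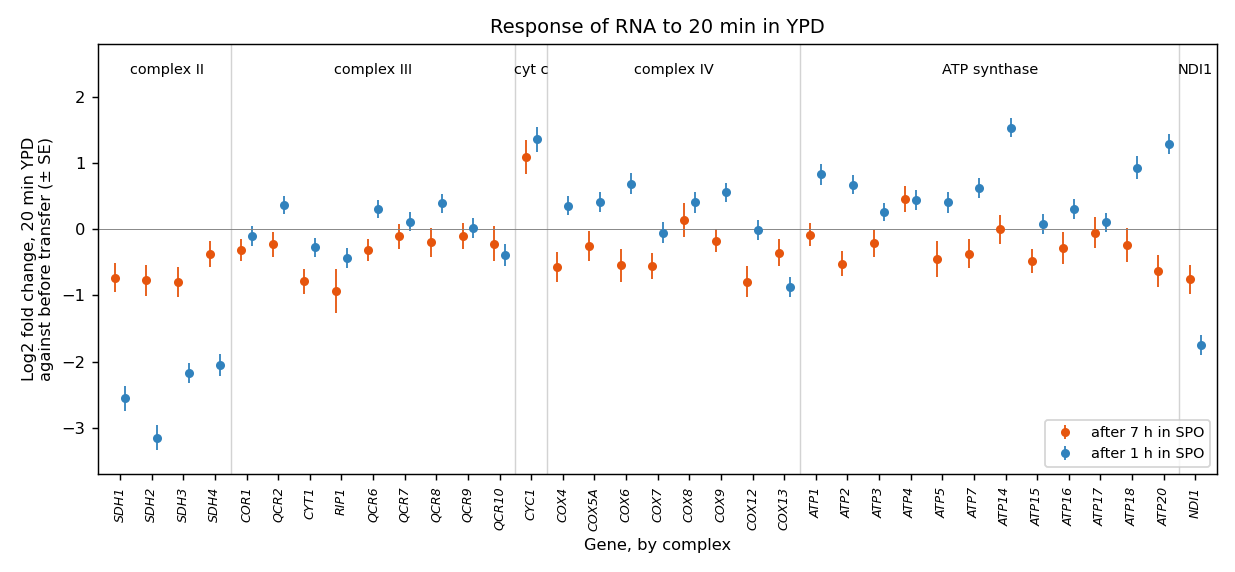
Log2 fold change of RNA-seq counts after 20 min in YPD against before transfer (± SE of the fit) for each of the 35 genes, by complex, after 7 h (orange) and after 1 h in SPO (blue). The 4 SDH genes lie between -0.80 and -0.37 after 7 h and between -3.15 and -2.05 after 1 h, and CYC1 lies above 0 at both times.

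After 7 h in SPO fewer genes passed the test. At 20 min, 1 of the 35 genes rose and 11 fell, beside 29.1% of all genes called, 17.9% higher and 11.2% lower. CYC1 had 142 and 121.8 CPM at 20 min, against 65.41 and 53.29 CPM before transfer (log2 1.09, SE 0.26, adjusted p = 0.000977). SDH2 had 140.3 and 119.2 CPM, against 243.1 and 175.1 CPM before (log2 -0.77, SE 0.24, adjusted p = 0.0104), and SDH3 was the lowest of complex II at -0.80 (SE 0.22, adjusted p = 0.00503). The lowest of the other complexes were RIP1 at -0.93 (adjusted p = 0.028), COX12 at -0.79 (adjusted p = 0.0097) and ATP20 at -0.63 (adjusted p = 0.0429). NDI1 had 82.79 and 101.1 CPM, against 133.7 and 213.1 CPM before (log2 -0.76, SE 0.22, adjusted p = 0.00703). At 5 min after 7 h, 1 rose and 10 fell, beside 49.4% of all genes called, with SDH3 lowest at -1.81 (SE 0.24, adjusted p = 2.23e-08) and COX12 at -1.03 (SE 0.23, adjusted p = 0.000326).

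These counts depended on single libraries, and 7 h replicate 2 before transfer holds 132594 counts. At 20 min, 4 genes were called without 7 h replicate 1, 3 without 20 min replicate 1 and 7 without 20 min replicate 2. At 5 min, 5 were called without 7 h replicate 1 and 7 without 5 min replicate 2. The calls named for 20 min were each lost without at least 1 library, CYC1 among them (adjusted p = 0.125 without 7 h replicate 1 and 0.0508 without 20 min replicate 1).

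The difference between the 20 min responses, after 7 h minus after 1 h, was tested in the same model. It passed for 20 of the 35 genes, 5 above 0 and 15 below, beside 60.9% of all genes called, 32.4% above and 28.4% below. All 4 complex II genes and NDI1 were above 0, since they fell less after 7 h. SDH2 differed by 2.38 (SE 0.30, adjusted p = 5.42e-09), SDH1 by 1.82 (SE 0.28, adjusted p = 4.65e-07), SDH4 by 1.68 (SE 0.26, adjusted p = 4.94e-07), SDH3 by 1.38 (SE 0.27, adjusted p = 2.97e-05) and NDI1 by 0.99 (SE 0.27, adjusted p = 0.00158). The 15 below 0 were 2 in complex III, 5 in complex IV and 8 in ATP synthase. They were led by ATP20 at -1.92 (SE 0.29, adjusted p = 2.11e-07), ATP14 at -1.54 (SE 0.26, adjusted p = 3.22e-06) and COX6 at -1.24 (SE 0.29, adjusted p = 0.00038). ATP20 had 74.07 and 57.02 CPM at 20 min after 7 h, against 108.4 and 98.96 CPM before, the opposite of its rise after 1 h. CYC1, which rose at both times, did not differ past the threshold (log2 -0.27, SE 0.33, adjusted p = 0.489). Without 7 h replicate 1, 11 genes passed, 4 above 0 and 7 below, and NDI1, COX6 and QCR6 were lost (adjusted p 0.3, 0.0542 and 0.0898), QCR6 (log2 -0.62, adjusted p = 0.0152) also without 7 h 20 min replicate 1 (0.091). With library size alone, 8 were above 0 and 3 below; complex II and NDI1 stayed above 0 and ATP20 and ATP14 below.

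Tag counts also fell in complex II at 20 min after 1 h. SDH1 fell by 3.19 on the log2 scale (SE 0.36, adjusted p = 9.02e-10), SDH3 by 2.59 (SE 0.37, adjusted p = 2.01e-07), SDH2 by 2.52 (SE 0.37, adjusted p = 2.92e-07) and SDH4 by 1.37 (SE 0.34, adjusted p = 0.000947). ATP18, a small Fo subunit, rose most (log2 1.68, SE 0.42, adjusted p = 0.0008). ATP2, which was higher in RNA-seq, had 1279 and 539 tags at 20 min, in libraries of 1357096 and 627987 tags. Before transfer it had 1644 and 757, in libraries of 932309 and 452277 tags. Its share of all tags was thus lower at 20 min. Of the 35 genes 7 rose and 6 fell in tags, beside 54.2% of all genes called, or 1 rose and 10 fell with library size alone. None of the 13 genes called in both assays went in opposite directions. After 7 h none of the 35 was called in tags by edgeR, beside 7.65% of all genes, with 5 at an unadjusted p under 0.05 and 1 called by DESeq2.

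Tails were compared in the same shift. Of all genes, 2046 were tested at 5 min and 1411 at 20 min after 1 h, and 2713 and 2559 after 7 h. For the difference of the responses 1261 were tested. At 20 min after 1 h, 6 of 33 tails were longer and none shorter, beside 26.1% of all genes called and 20.3% longer, a share near that of the 33 genes, with medians of 4.27 nt for the 33 genes and 4.03 nt for all genes. ATP2 tails had 29.37 and 26.39 nt at 20 min, against 20.85 and 21.36 nt before (6.78 nt, SE 1.80, adjusted p = 0.0127). QCR2, a core subunit of complex III, had 30.81 and 32.52 nt, against 24.98 and 24.74 nt before (6.80 nt, SE 1.90, adjusted p = 0.0168). At 5 min, 2 of 33 tails were shorter, beside 13.7% of all genes called, namely QCR8 at -6.53 nt (SE 1.92, adjusted p = 0.0286) and ATP15 at -6.25 nt (SE 1.59, adjusted p = 0.0117). After 7 h, none of 32 tails was called by limma at 5 min (0% of all genes) or 20 min (0.43%), with 1 and 6 at an unadjusted p under 0.05. ATP2 had 15.43 and 17.19 nt at 20 min after 7 h, against 18.46 and 19.89 nt before, lower in both libraries. The difference of the responses passed for 4 of 32 tails, all below 0, beside 7.69% of all genes: RIP1 at -14.2 nt (SE 4.12, adjusted p = 0.0443), QCR2 at -10.3 nt (SE 2.68, adjusted p = 0.0364), COX9 at -10.2 nt (SE 2.59, adjusted p = 0.0342) and ATP2 at -9.64 nt (SE 2.54, adjusted p = 0.0375).

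The tail calls depended on single libraries. At 20 min after 1 h, 3 remained without 20 min replicate 2 and none without any one of the other 3 libraries. At 5 min, at most 1 call remained without any one library. The 4 differences of responses were lost without any one of the 2 libraries of 1 h, 1 h 20 min replicate 1, 7 h replicate 2 and 7 h 20 min replicate 1. With libraries centred on their median tail, at 20 min after 1 h none was longer and 5 were shorter, and 1 difference of responses passed, above 0.

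Paralogues of members were also followed. SDH9, a paralogue of SDH1, had 285.6 and 301.9 CPM at 1 h in SPO, against 13.08 and 14.98 CPM at 0 h (log2 4.39, SE 0.15, adjusted p = 1.81e-13), and 338.2 and 323.1 CPM at 9 h. CYC7, iso-2-cytochrome c, had 181.4 and 171.5 CPM at 1 h, against 49.42 and 44.41 CPM at 0 h (log2 1.91, SE 0.19, adjusted p = 5.19e-08). SHH3, a paralogue of SDH3, had 177.3 and 218.4 CPM at 9 h, against 4.361 and 8.779 CPM at 0 h (log2 4.95, SE 0.29, adjusted p = 4.37e-11). COX5B had 177.3 and 169.1 CPM at 9 h, against 25.2 and 30.47 CPM at 0 h (log2 2.64, SE 0.23, adjusted p = 1.41e-08). All 5 paralogues, with SHH4, were higher at 1 h, beside 28.4% of all genes. Of these SHH3 passed narrowly (log2 0.99, SE 0.41, adjusted p = 0.0472). After 20 min in YPD following 1 h all 5 were lower, beside 42.7% of all genes.

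In that shift CYC7 fell to 1.139 and 0.574 CPM, against 92.52 and 118.3 CPM before (log2 -6.92, SE 0.35, adjusted p = 3.19e-21), while CYC1 rose. SHH4 fell to 0.5693 and 1.148 CPM, against 132.3 and 175.2 CPM before (log2 -7.18, SE 0.31, adjusted p = 2.24e-23). SDH9 fell to 5.693 and 10.62 CPM, against 268.2 and 337.3 CPM before (log2 -5.08, SE 0.23, adjusted p = 6.4e-23). After 7 h, SDH9 had 186.5 and 220.3 CPM at 20 min and 211.8 and 159.9 CPM before, overlapping ranges. SDH1 and SDH9 are similar in sequence and could share or lose reads, so values of both are uncertain to that extent.

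Other genes of the pathway were counted from lists chosen with earlier results known. The share of all genes called, 81.1% at 20 min after 1 h and 57.7% at 1 h in SPO, is the background for these counts, and several lie near it. At 20 min after 1 h, 1 of 11 genes of the citric acid cycle rose and 8 fell, led by the citrate synthase gene CIT1, with 52.37 and 62.85 CPM against 3715 and 3023 CPM before (log2 -5.85, SE 0.20, adjusted p = 8.33e-27). Of 19 assembly factor genes 5 rose and 9 fell. Of 5 genes, 4 of the HAP complex and PUF3, 2 rose and 2 fell. A further list of 8 genes held ATPase inhibitors, external dehydrogenases and the ATP synthase subunit genes ATP19 and TIM11, which are not members. Of these 8 genes 3 rose and 5 fell, and the external NADH dehydrogenase genes parted. NDE2 had 17.65 and 15.78 CPM, against 2211 and 1834 CPM before (log2 -6.93, SE 0.22, adjusted p = 1.25e-27). NDE1 had 961.5 and 1041 CPM, against 448.5 and 360.1 CPM before (log2 1.30, SE 0.16, adjusted p = 6.91e-10). HAP4, the activator subunit of the CCAAT-binding complex, rose at 5 min to 629.9 and 634.4 CPM, against 211.4 and 214.6 CPM before (log2 1.59, SE 0.15, adjusted p = 5.85e-12), and had 471.9 and 474.1 CPM at 20 min (log2 1.15, SE 0.15, adjusted p = 9.01e-09). HAP2, another subunit gene of that complex, fell by edgeR at 5 min (log2 -2.29, SE 0.27, adjusted p = 8.64e-10) and at 20 min (log2 -2.54, SE 0.25, adjusted p = 5.34e-12). PUF3 rose at 20 min, to 154.3 and 139.8 CPM against 87.83 and 81.47 CPM before (log2 0.78, SE 0.16, adjusted p = 3e-05), a call lost with library size alone (log2 0.11, adjusted p = 0.52). At 1 h in SPO, 3 citric acid cycle genes rose and 3 fell, and 3 assembly factor genes rose and 12 fell. In the list of 8 genes with the inhibitors and dehydrogenases, 1 rose and 6 fell, ATP19 among the latter.

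In wild type of the third experiment, complex II genes were higher in Pre and Mei than in Veg, and CYC1 was lower. Differences here are between single libraries, with over 2-fold as the mark. In Pre against Veg, 7 of 35 genes were over 2-fold higher and 4 lower, beside 49.3% of all genes. All 4 SDH genes were among the higher ones, with log2 differences between 1.53 and 2.43. SDH1 had 1416 CPM in Pre and 325.7 CPM in Veg, and SDH4 had 437.9 CPM in Pre and 78.62 CPM in Veg. CYC1 was far lower, with 49.08 CPM in Pre and 1314 CPM in Veg (log2 -4.65). RIP1, CYT1 and ATP20 were the other 3 lower genes, and COX13 was the highest of complex IV (log2 1.81). In Mei against Veg, 5 were higher and 6 lower, beside 58.6% of all genes, with SDH4 at 3.24 and CYC1 at -3.43. With library size alone the splits became 13 higher and 2 lower in Pre, and 6 higher and 3 lower in Mei. The ZeroRNA libraries of wild type gave 4 higher and 7 lower in Mei against Veg, beside 59.9%, with SDH4 at 3.41 and CYC1 at -3.52, or 4 higher and 2 lower with library size alone.

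In premeiotic cells without a deadenylase, CYC1 and NDI1 were the genes furthest above wild type, and nearly all complex III genes were over 2-fold higher. In ccr4Δ/Δ, 16 of 35 genes were over 2-fold higher and none lower, beside 35.9% of all genes (19.8% higher). In pop2Δ/Δ, 16 were higher and none lower, beside 34.9% (19.5% higher). These comparisons share the wild-type library. By complex, 9 of 9 complex III genes were over 2-fold higher in ccr4Δ/Δ and 8 of 9 in pop2Δ/Δ, and none of the 8 complex IV genes was in either. In complex II it was 1 and 2 of 4, and in ATP synthase 4 of 12 in each. The summed level of the 35 genes was 37202 CPM in ccr4Δ/Δ, 36888 CPM in pop2Δ/Δ, 32013 CPM in xrn1Δ/Δ and 19741 CPM in wild type.

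CYC1 had 661.7 CPM in ccr4Δ/Δ, 1088 CPM in pop2Δ/Δ and 595.7 CPM in xrn1Δ/Δ, against 49.08 CPM in wild type. NDI1 had 1147, 1853 and 548.2 CPM in the 3 mutants in that order, against 207.6 CPM in wild type, and RIP1 had 598.7, 656.8 and 409.4 CPM, against 128.4 CPM. QCR7 had 1433 CPM in ccr4Δ/Δ, 1174 CPM in pop2Δ/Δ and 2154 CPM in xrn1Δ/Δ, against 698 CPM in wild type. All 3 mutants lay above wild type in these 4 genes. COX5A had 1449 CPM in ccr4Δ/Δ, 1078 CPM in pop2Δ/Δ and 539 CPM in xrn1Δ/Δ, against 808 CPM in wild type. ATP2 had 4443, 3984 and 2736 CPM, against 1835 CPM in wild type.

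Markers of meiotic entry differed in the same libraries. IME1, the master regulator of entry, had 534 CPM in ccr4Δ/Δ, 390 CPM in pop2Δ/Δ and 36.9 CPM in xrn1Δ/Δ in Pre, against 3032 CPM in wild type. In Mei, NDT80, the activator of the middle genes, had 8.94, 6.19 and 34.6 CPM, against 1520 CPM in wild type. The part of stage in the differences between strains was not tested.

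**Figure D4:**
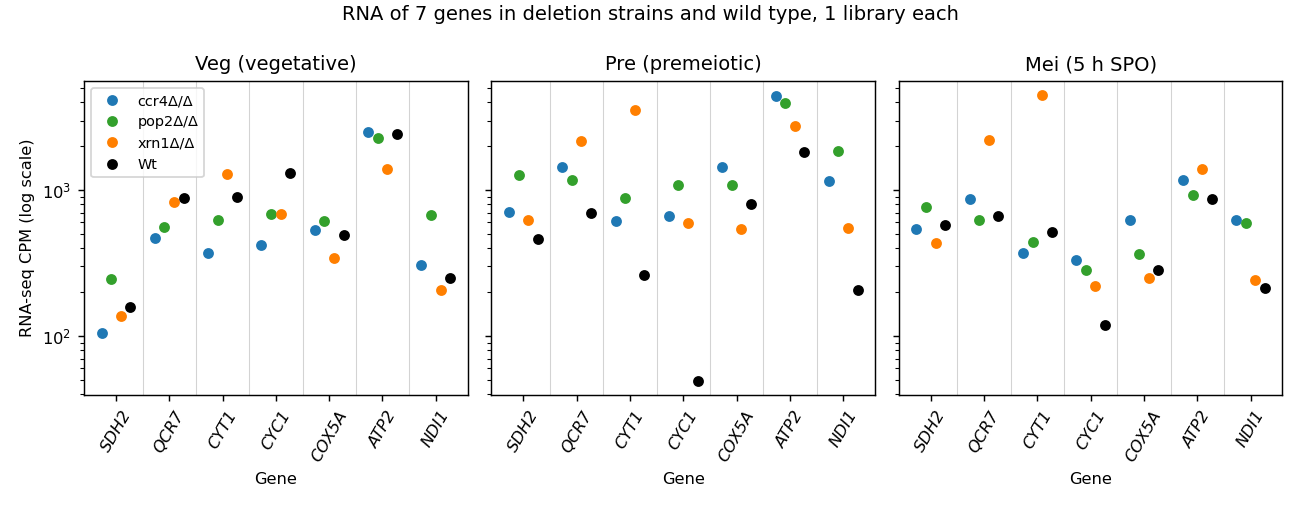
RNA-seq CPM on a log axis for 7 genes in ccr4Δ/Δ, pop2Δ/Δ, xrn1Δ/Δ and wild type, each point 1 library, in vegetative growth, premeiotic conditions and 5 h SPO. In Pre, wild-type CYC1 at 49.08 lies below the mutants at 595.7 to 1088, and CYT1 in xrn1Δ/Δ stands at 3556 in Pre and 4465 in Mei.

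In vegetative growth few of the 35 genes differed over 2-fold. In ccr4Δ/Δ none was higher and 3 were lower (9.49% of all genes past the mark, 2.15% lower). These were CYC1 with 421.5 CPM against 1314 CPM in wild type, CYT1 and QCR6. In pop2Δ/Δ 2 were higher (17.2% of all genes past the mark, 9.74% higher), SDH4 with 165.5 CPM against 78.62 CPM in wild type and NDI1 with 670.6 CPM against 249.6 CPM. In xrn1Δ/Δ none was past the mark (20.7%), and the ZeroRNA libraries gave 9 lower and none higher in xrn1Δ/Δ (28.8%, 15.6% lower). None of these 9 was past the mark with library size alone, and 1 other gene was higher. In Mei, 6 were higher in ccr4Δ/Δ (45.2% of all genes past the mark, 22.9% higher). There were 3 higher and 1 lower in pop2Δ/Δ (41.9%, 20% higher), and 8 higher and 3 lower in xrn1Δ/Δ (41.7%, 18.8% higher). SDH4 had 475.9 CPM in ccr4Δ/Δ, 355.9 CPM in pop2Δ/Δ and 224.8 CPM in xrn1Δ/Δ in Mei, against 770.4 CPM in wild type. With library size alone, 11 were higher in ccr4Δ/Δ, 8 in pop2Δ/Δ, and 14 higher and 1 lower in xrn1Δ/Δ.

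CYT1 was the member furthest above wild type in xrn1Δ/Δ. In that strain it had 1291 CPM in Veg, 3556 CPM in Pre and 4465 CPM in Mei, against 897.3, 260.5 and 515.9 CPM in wild type. The log2 differences were 3.75 in Pre and 3.11 in Mei. Tags of CYT1 in xrn1Δ/Δ had 45.3, 190.2 and 179.2 CPM, against 26.7, 30 and 16.9 CPM in wild type, higher at every stage. In Pre 11 of 35 genes were higher in xrn1Δ/Δ and 1 lower, beside 34.9% of all genes, 20.3% higher. Of the higher ones 5 belong to complex III and the lower one is SDH3, with 295.2 CPM against 872.1 CPM in wild type. QCR6 had 1673 CPM in Pre and 2654 CPM in Mei in xrn1Δ/Δ, against 370 and 891.8 CPM in wild type.

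In vegetative cells, tails of the 35 genes were longer in the deadenylase mutants and shorter in xrn1Δ/Δ than in wild type. All 35 had 20 tags in every library of experiments 3 to 5. In Veg the median over the 35 genes was 44.6 nt in ccr4Δ/Δ, 38.8 nt in pop2Δ/Δ, 24.5 nt in xrn1Δ/Δ and 33.4 nt in wild type. The median over all 4385 genes with 20 tags in every library of experiment 3 was 49.6, 42.2, 23.3 and 37.6 nt. Tails were over 5 nt longer in 35 of 35 genes in ccr4Δ/Δ (94.2% of all genes) and 19 in pop2Δ/Δ (41.2%). They were over 5 nt shorter in 28 genes in xrn1Δ/Δ (91.3%), with a median change of -7.48 nt for the 35 genes and -14.7 nt for all genes.

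In Pre, tails were over 5 nt longer in 33 genes in ccr4Δ/Δ (72.8%) and 26 in pop2Δ/Δ (53.6%), and shorter in 16 in xrn1Δ/Δ (92.7%). The median change in xrn1Δ/Δ was -4.73 nt for the 35 genes and -13.5 nt for all genes. Wild-type tails of the 35 genes were themselves short in Pre, with a median of 25.8 nt, against 33.4 nt in Veg, and 25 genes were over 5 nt shorter (46.5%). In Mei, 14 genes were over 5 nt shorter and 1 longer in ccr4Δ/Δ than in wild type (18.8% of all genes shorter and 22.1% longer). In pop2Δ/Δ 13 were over 5 nt shorter (23.4% of all genes shorter and 19.1% longer). All 35 were over 5 nt shorter in xrn1Δ/Δ (98.5%). With each library centred on its median tail, 24 genes in Veg and 32 in Pre were over 5 nt longer in xrn1Δ/Δ, and 7 were in Mei, the reverse of the uncentred direction. In ccr4Δ/Δ the same centring left 1 gene longer in Veg, and 8 longer and 1 shorter in Pre.

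CYT1 and NDI1 lay at the ends of the range of tails in several libraries. CYT1 had the shortest tail of the 35 in wild type Veg, at 17.5 nt, and in ccr4Δ/Δ at 33.1, 22 and 17.4 nt in Veg, Pre and Mei. In xrn1Δ/Δ its tail was 15.9, 13.7 and 13.1 nt. NDI1 had the longest in wild type Veg at 40.5 nt and in ccr4Δ/Δ at 56.6, 47.6 and 36.6 nt, but 20.4 nt in xrn1Δ/Δ in Veg, where COX9 was longest.

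**Figure D5:**
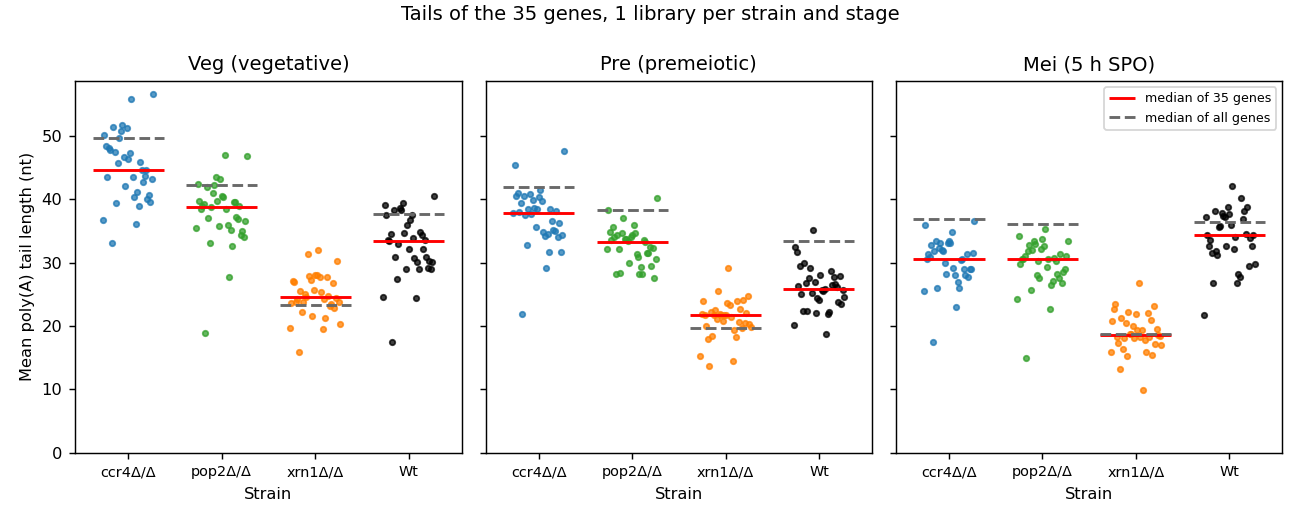
Mean poly(A) tail length in nt of each of the 35 genes (points) in ccr4Δ/Δ, pop2Δ/Δ, xrn1Δ/Δ and wild type, 1 library per strain and stage. The red line is the median of the 35 genes. The dashed grey line is that of all 4385 genes with 20 tags in every library of the experiment. In Veg the red line lies at 44.6 nt in ccr4Δ/Δ and 33.4 nt in wild type, below the dashed line in both, and in xrn1Δ/Δ at 24.5 nt, above the dashed line at 23.3 nt.

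At 30 min of auxin in the degron-Xrn1 strain, the tails of 30 of 35 genes were over 5 nt shorter than at 0 min (86.7% of all genes), with a median change of -7.61 nt, against -11.7 nt for all genes. With each library centred on its median tail the direction turned, with 14 genes over 5 nt longer and none shorter. In RNA, 5 genes were over 2-fold higher at 30 min than at 0 min and none lower, beside 15.3% of all genes, 10.3% higher. They were SDH1, SDH2, SDH4, QCR9 and NDI1. SDH2 had 124.8 CPM at 30 min and 25.99 CPM at 0 min, and SDH1 had 234.9 CPM at 30 min and 70.1 CPM at 0 min. The wild-type control had 148 and 349.9 CPM, so the 0 min library was the low one. SDH4 had 65.29 CPM at 30 min, 25.2 CPM at 0 min and 100.1 CPM in the control. With library size alone 8 genes were higher.

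At 60 min of CCR4 induction, the tails of 17 of 35 genes were over 5 nt shorter than at 0 min (48.9%), with a median change of -4.93 nt, against -4.92 nt for all genes. After centring none was over 5 nt shorter and 2 were longer. None of the 35 genes differed over 2-fold in RNA, beside 5.01% of all genes. SDH2 had 180.1 CPM at 60 min and 144.2 CPM at 0 min, ATP2 had 1565 and 2160 CPM, and CYC1 had 786.4 and 930.7 CPM at the same times.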

How the data were processed

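RNA-seq and poly(A) tag (mPAT) libraries were grouped by their titles. The authors deposited raw counts per gene for RNA-seq and for tags, and a signal, the mean poly(A) tail length per gene and library in nt; per the submitters' processing notes, the tools include STAR 2.5.3a and the build is sacCer3. For strand use and duplicate removal, nothing is given in the sources used here. The deposited ratio of 3′ bias was not used. RNA-seq was made from ribosome-depleted and tags from poly(A)-selected RNA, per the labels' protocols.

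Counts were tested with edgeR 4.0.16 (TMM, filterByExpr, quasi-likelihood, group means per experiment) and DESeq2 1.42.0 as an alternative, and mean tails with limma 3.58.1 on the linear scale where every compared library had at least 20 tags, in R 4.3.3. Benjamini-Hochberg adjusted p under 0.05 over all genes tested counted as changed. CPM used TMM-adjusted totals over an experiment. Between single libraries, a log2 difference (prior count 2, mean of at least 10 counts) over 2-fold, or over 5 nt in tails, counted as different. Scripts were tested on simulated data. Alternatives were other scalings, filters, minimum tags, centring, a replicate block and leaving out each library, which assumes that the lone library left varies like the other groups. Nothing in the labels says that replicates came from separate cultures; p-values therefore reflect the spread of the samples alone, possibly technical. Any of the 35 genes could be named; by rule these were, per comparison, the highest and lowest of each complex, CYC1 and NDI1, the 3 highest and 3 lowest differences of responses, and ATP2, COX5A, SDH2, QCR7 and CYC1 for levels. Of the other lists the rule took the highest and lowest passing gene, all paralogues, HAP4 and PUF3, and only some of these are printed. The 35 genes and the lists were chosen with earlier results of these data known. In the deposited tables, 6008 of 6692 genes matched R64 gene names.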

Additional observations from a re-analysis of the deposited data

Results flagged for a closer look

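The responses to 20 min in YPD after 7 h and after 1 h in SPO differed, by a test of the difference itself, in the RNA of 20 of the 35 genes, beside 60.9% of all genes, a similar share. There were 5 above 0 and 15 below, or 8 above and 3 below with library size alone. The difference of log2 changes (7 h minus 1 h) was 2.38 for SDH2, 1.82 for SDH1, 1.68 for SDH4, 1.38 for SDH3 and 0.99 for NDI1. It was -1.92 for ATP20, -1.54 for ATP14, -1.24 for COX6 and -0.62 for QCR6. NDI1, COX6 and QCR6 were lost without 7 h replicate 1. In tails, 4 differences passed the test, with -14.2 nt for RIP1, -10.3 nt for QCR2, -10.2 nt for COX9 and -9.64 nt for ATP2, beside 7.69% of all genes. All 4 were lost without any one of 5 libraries (both of 1 h, 1 h 20 min replicate 1, 7 h replicate 2 and 7 h 20 min replicate 1), and with centred libraries only 1 other difference passed, above 0. The 7 h libraries before transfer include one of 132594 counts, and the part of depth in these differences was not tested beyond leaving out each library.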

How the results depend on the processing

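RNA counts of called genes from 1 to 9 h of sporulation stayed within 1.5 times of those reported under every scaling, filter, tool and left-out library. With library size alone, the number of genes called was 11 for the difference of responses and 14 for tags at 1 h. For tags at 20 min after 7 h it was 1 with library size alone, 1 with no filter and 1 by DESeq2. Between single libraries, library size alone gave 11 genes past 2-fold in ccr4Δ/Δ Mei, 5 in pop2Δ/Δ Veg, 8 in pop2Δ/Δ Mei, 1 in xrn1Δ/Δ Veg, 8 in the degron strain, 6 for ZeroRNA Mei against Veg (4 higher, 2 lower) and 1, higher, for ZeroRNA xrn1Δ/Δ against wild type.

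Tail calls changed more. With a minimum of 10 tags, 0 were called at 1 h, 4 at 5 h and 1 at 9 h. With a minimum of 50, 5 were called at 5 h, 1 at 20 min after 7 h and 7 for the difference of responses. With each library centred on its median tail, 0 were called at 1 h, 5 at 5 h, 3 at 9 h, 4 at 5 min after 1 h and 1 for the difference of responses. By the same centring, the tails past 5 nt were 1 longer in ccr4Δ/Δ Veg, 9 in ccr4Δ/Δ Pre (8 longer, 1 shorter), 1 longer in pop2Δ/Δ Veg, 4 in pop2Δ/Δ Pre (3 longer, 1 shorter) and 7 in wild type Pre against Veg (1 longer, 6 shorter). In xrn1Δ/Δ 32 in Pre and 7 in Mei were longer, in the degron strain 14 were longer and after CCR4 induction 2 were longer, where the uncentred tails were shorter. Centring removes a shift shared by all genes, by construction; for the other settings the cause was not tested.

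Some single values changed sign. NDI1 at 1 h was at 0.0093 with library size alone. SDH2 at 9 h was at 0.085 with relative log expression factors and 0.095 by DESeq2, and between -0.15 and 0.063 without one library. QCR8 at 20 min after 1 h was at -0.29 with library size alone. In the difference of responses, library size alone gave 0.031 for QCR6 and 0.38 for CYC1. CYC1 there lay between -0.57 and 0.18 without one library.

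Leaving out each library in turn gave, in RNA, 16 to 23 calls at 20 min after 1 h, 5 to 10 at 5 min after 7 h, 3 to 8 at 20 min after 7 h and 11 to 22 for the difference of responses. It gave 12 to 21 calls in tags at 1 h and 0 to 2 at 20 min after 7 h. In tails it gave 0 to 2 calls at 1 h, 0 to 6 at 5 h, 0 to 1 at 5 min after 1 h, 0 to 3 at 20 min after 1 h, 0 to 1 at 20 min after 7 h and 0 to 4 for the difference of responses.

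No label says that replicate numbers pair the samples, and the main fits did not pair them. In the sporulation series the correlation of same-numbered RNA libraries' deviations ran from -0.16 to 0.40, with 22 of 45 pairs over 0.1, and in the return to growth from -0.07 to 0.08. For tags of the sporulation series it ran from 0.04 to 0.20, with 36 of 45 pairs over 0.1, and for tails from -0.14 to 0.35, with 19 of 45. Median tails of the 244 genes with 20 tags in every sporulation library were longer in replicate 2 at every hour, by values such as 20.1 against 17.2 nt at 0 h. With the replicate number as a block, 18 tails were called at 1 h, 22 at 5 h and 3 at 9 h, and no other count moved by over 1.5 times. For the 7 h comparisons in RNA the part of depth was not tested. At 9 h, 10 genes had 20 tags in the compared libraries.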
